A study of Mus musculus with 8 samples.

Results

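The unfolded protein response and the integrated stress response were followed through 30 genes that mark these pathways, chosen by name and sorted by role: 7 Hsp70 and Hsp90 chaperones and co-chaperones of the endoplasmic reticulum (ER), 2 lectin chaperones, 3 protein disulfide isomerases, 2 ER-resident secreted factors, 6 sensors and transcription factors, 4 targets of the integrated stress response and 6 genes of ER-associated degradation. All 30 had a row among the 53507 gene rows of each count table, and all 30 were among the 19936 genes that passed the filter on low counts. The libraries were made from tdTomato+ cells of mouse brain, labelled as progenitor cells, with 2 libraries in each of 4 groups. Hypoxic P12 cells came from pups kept in 10% oxygen from postnatal day 3 to 11, for 8 days, and collected on postnatal day 12. Normoxic P12 cells came from pups of the same age kept in room air. E15 and E13 cells came from embryos of embryonic day 15 and 13 whose treatment label reads wt. Foster mothers were exchanged between the hypoxic and control litters on postnatal days 6 and 9. The allele that drives tdTomato is not given in the sources used here, and no label says whether the 2 libraries of a group came from separate animals, so every p-value below measures only the spread between these libraries, which may be technical.

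Proteins that enter the ER are folded there by chaperones, and 3 membrane sensors respond when unfolded protein accumulates. ATF6 is cut and its free part enters the nucleus, IRE1 (the product of Ern1) splices Xbp1 mRNA, and PERK (the product of Eif2ak3) phosphorylates the translation factor eIF2. ATF6 and spliced XBP1 raise transcription of chaperones and degradation factors, while eIF2 phosphorylation lowers most translation and favours that of ATF4, which is the route shared with the integrated stress response. Much of this regulation acts on protein, splicing and translation, so mRNA levels read only the transcriptional side of it. In the developing cortex the same sensors are known for tuning the output of neural progenitors.

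Each library held 36252027 to 46023539 counts in gene rows at P12 and 40610695 to 47084796 in the embryonic groups, so a count of 0 allows up to 0.0953 to 0.111 CPM at P12 and 0.0482 to 0.0537 CPM in embryonic libraries. CPM here are counts per mega-count of library size after TMM scaling. Every library was built from 400 pg of total RNA. Genes with at least 10 counts numbered 12785 and 11695 in the hypoxic and 14129 and 16468 in the normoxic P12 libraries. In embryonic libraries they numbered 17520 to 18318, so the hypoxic libraries detected the fewest genes of the series. The P12 replicates stood far apart. Of genes above 10 CPM in either replicate, 35% differed at least 10-fold between the 2 hypoxic libraries and 17.5% between the 2 normoxic libraries, against 0.0105% at E15 and 0.0619% at E13. Among the stress response genes this happened to Dnajb9 and Syvn1 in hypoxic P12 cells, to Hyou1 and Chac1 in normoxic P12 cells, and to 0 of 28 and 0 of 27 genes at E15 and E13. The progenitor label held in part. Slc1a3, a radial glia gene also used by astrocytes, ran from 2410 to 3430 CPM at P12 and from 1.09 to 19.4 CPM in embryos. Of the 9 radial glia markers, Pax6, Sox2, Hes1, Hes5 and Fabp7 were likewise higher in every P12 library than in every embryonic one. Vim ran from 22.1 to 140 CPM at P12 and from 69.2 to 208 CPM in embryos. Nes ran from 6.35 to 70.5 CPM at P12 and from 7.89 to 22.3 CPM in embryos, and Hopx also overlapped. Eomes, the defining gene of intermediate progenitors, ran from 12.9 to 77.7 CPM at P12 and from 101 to 267 CPM in embryos. The 4 intermediate progenitor markers together held 4570 to 6720 CPM at P12 and 531 to 1080 CPM in embryos, with Btg2, also an immediate early gene, at 4520 to 6560 CPM and 88.5 to 317 CPM of that. Summed over 6 astrocyte markers the P12 libraries held 4040 to 5330 CPM and the embryonic ones 9.02 to 34.7 CPM, with Aldh1l1 at 0 and Gfap at 0 or 1 read in embryos, and over 8 neuron markers 278 to 771 CPM at P12 and 2940 to 3420 CPM in embryos. In these bulk libraries, fewer cells of a type and less RNA per cell cannot be told apart.

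Several of the genes described here carry a known regulatory element in their promoter, and these are the sequences through which ATF6, XBP1 and ATF4 are known to act. Promoter windows from RefSeq (GRCm38.p6, 250 bases before to 50 after the start site) were at hand for 26 of the 30 genes, and none was for Hyou1, Manf, Atf6 and Derl1. The ER stress element (CCAAT, any 9 bases, then CCACG, on either strand) was found in 8 of the 26, which are Hspa5, Hsp90b1, Dnajc3, Calr, Canx, Pdia6, Creld2 and Syvn1, and in 37 of the 27025 genes with a promoter window, or 0.137%. Its shorter form (ATTGG, any base, then CCACG) was found in Herpud1 and Dnajb11 and in 0.0444% of all genes. The amino acid response element bound by ATF4 and its partners (TGATGNAA) was found in Trib3, Asns, Chac1 and Herpud1, against 4.51% of all genes, and the 8 bases of the XBP1 site (TGACGTGG) in 0 of the 26 against 0.714%. The part CCACG alone was present in 35.5% of all genes' windows, so only the longer forms set promoters apart. A match is a description of the letters and does not show binding. The 160 bases before the RefSeq start site are given 5′ to 3′ for 5 genes that carry an ER stress element and were higher in hypoxic P12 cells than in embryos, and for Asns, which was lower in hypoxic than in normoxic P12 cells. Capitals mark the ER stress elements, the shorter form and the amino acid response elements.
Hspa5, chr2:34771930-34772089, plus strand: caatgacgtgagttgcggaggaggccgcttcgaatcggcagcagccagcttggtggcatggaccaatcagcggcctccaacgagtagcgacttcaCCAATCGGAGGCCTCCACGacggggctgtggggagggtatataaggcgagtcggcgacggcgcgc
Dnajc3, chr14:118937772-118937931, plus strand: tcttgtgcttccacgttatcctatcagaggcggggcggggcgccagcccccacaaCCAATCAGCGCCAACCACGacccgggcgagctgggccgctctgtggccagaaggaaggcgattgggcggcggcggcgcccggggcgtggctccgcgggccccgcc
Canx, chr11:50325674-50325833, minus strand: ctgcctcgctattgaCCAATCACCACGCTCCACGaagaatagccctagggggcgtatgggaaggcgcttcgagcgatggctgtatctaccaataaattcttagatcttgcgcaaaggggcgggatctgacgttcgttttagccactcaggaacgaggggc
Creld2, chr15:88819486-88819645, plus strand: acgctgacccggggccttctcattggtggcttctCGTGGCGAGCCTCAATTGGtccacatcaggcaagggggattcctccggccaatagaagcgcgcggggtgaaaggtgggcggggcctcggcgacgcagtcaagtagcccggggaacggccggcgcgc
Herpud1, chr8:94386269-94386428, plus strand: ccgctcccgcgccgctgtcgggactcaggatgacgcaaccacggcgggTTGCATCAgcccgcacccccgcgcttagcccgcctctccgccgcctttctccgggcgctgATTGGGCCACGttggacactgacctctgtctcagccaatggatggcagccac
Asns, chr6:7693210-7693369, minus strand: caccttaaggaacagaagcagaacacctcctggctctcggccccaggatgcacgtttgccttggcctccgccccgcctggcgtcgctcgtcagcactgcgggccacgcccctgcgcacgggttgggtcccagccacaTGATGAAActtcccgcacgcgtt
The longest GENCODE transcript of Hspa5 starts within the stretch shown and covers 120 of its bases, and that of Asns covers 45. The stretches of Dnajc3, Canx, Creld2 and Herpud1 lie wholly outside the annotated genes. The element of Hspa5 sits 65 to 47 bases before the start, that of Dnajc3 105 to 87 bases and that of Canx 145 to 127 bases before it, all in the orientation of the gene. In Creld2 it lies on the opposite strand, and in Dnajb11 the shorter form lies 7 to 17 bases after the start, outside the stretch that would be shown.

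Compared between genes as CPM per kilobase of annotated exon, the folding machinery made up most of the signal at every age. Hspa5, which encodes BiP, the main ER Hsp70, held 362 CPM per kb on average in hypoxic and 305 in normoxic P12 cells, against 128 at E15 and 137 at E13. Canx, the membrane-bound lectin chaperone calnexin, held 407 CPM per kb in hypoxic and 286 in normoxic P12 cells, against 63.5 at E15 and 69.3 at E13. Calr, its soluble relative calreticulin, ranked highest of the 30 in both embryonic groups, with 141 CPM per kb at E15 and 159 at E13, and 119 and 104 in hypoxic and normoxic P12 cells. At the low end, Trib3, Ern1, Atf6 and Hyou1 were among the 6 lowest genes in each of the 4 groups. Ern1 had 0.0132 and 0.00587 CPM per kb in hypoxic and normoxic P12 cells and 1.77 and 0.823 at E15 and E13. Trib3, a pseudokinase that feeds back on the stress response, had 1 read in all 4 P12 libraries together and none at E15. Per-length levels use the union of annotated exons, so a gene with a long, little used exon is understated.

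**Figure D1:**
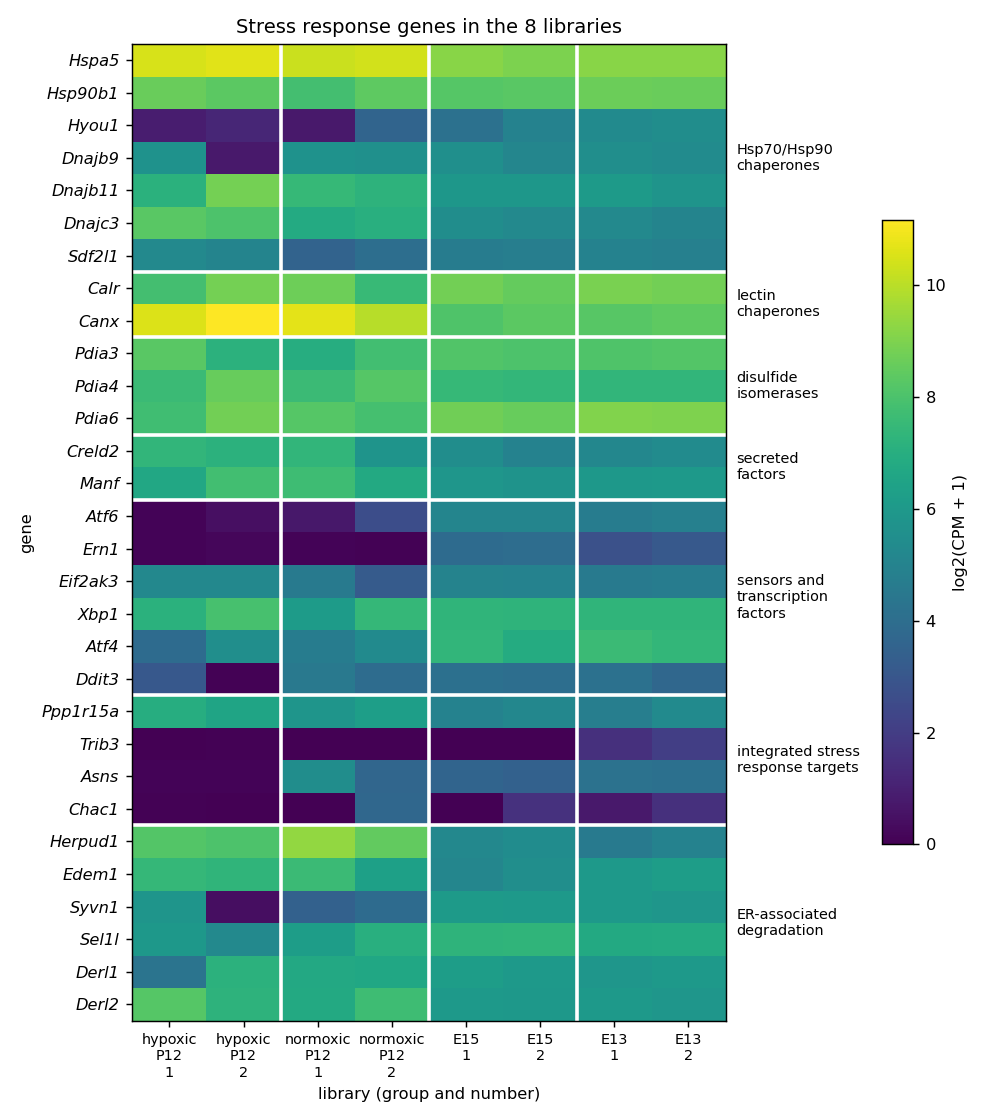
Levels of the 30 genes (rows, grouped by role) in the 8 libraries (columns) as log2(CPM + 1), with hypoxic P12, normoxic P12, E15 and E13 libraries from left to right. Hspa5 and Canx are brightest at P12, Ern1 and Atf6 are dark there, and Asns is dark in the 2 hypoxic libraries.

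Added up, the 30 genes held 6306 and 7969 CPM in hypoxic P12 cells, 6271 and 5357 CPM in normoxic P12 cells, 3661 and 3433 CPM at E15 and 3904 and 3873 CPM at E13. With TMM scaling all 4 P12 libraries lay above all 4 embryonic ones. This order rests on the scaling, with factors of 0.639 to 0.848 at P12 and 1.32 to 1.38 in embryos. With library totals left unscaled the P12 and embryonic sums overlap. Hspa5 alone contributed 22.6% and 20.5% of that sum in hypoxic P12 cells, 19.6% and 25.3% in normoxic P12 cells, and between 14.7% and 15.8% in embryonic cells.

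The first comparison asked whether cells collected a day after the end of chronic hypoxia differed from normoxic cells of the same age. Of the 30 genes 1 was lower and 0 were higher (edgeR's quasi-likelihood test, Benjamini-Hochberg adjustment over all genes at 0.05), against 2.82% lower and 0.196% higher among all 19936 genes tested. The gene was Asns, asparagine synthetase, a target of ATF4 that supplies asparagine. Fold changes were positive for 20 of the 30 and negative for 10, with a median log2 fold change of 0.27 beside 0 over all genes (0.25 beside -0.07 with genes at 0 set to the limit of 3 counts per library). The hypoxic and normoxic libraries did not overlap for 6 genes on the higher side and 5 on the lower side, against 13.1% and 20.1% of all genes, which is near the background for both. DESeq2 called 4 of the 30, with Dnajc3 and Sdf2l1 higher and Atf6 and Asns lower, beside 3879 of all genes, or 6.3% higher and 13.5% lower. With limma-voom 0 of the 30 and 0 of all genes were called. The counts changed with the libraries in the fit. Leaving out any one embryonic library took the calls to 0 of the 30 and 0 of all genes, against 602 of all genes with every library. Without the first hypoxic library 6 genes were called, among them Dnajb9, Ddit3 and Syvn1 as lower, beside 3018 of all genes, or 3.07% higher and 10.4% lower. Without the second 4 were called, with Syvn1 as higher, beside 1740 of all genes, or 1.59% higher and 6.17% lower. Asns and Dnajc3 were called in the same direction in both of these fits.

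Asns had 0.0673 and 0.074 CPM in the hypoxic P12 libraries, against 43.9 and 11.7 CPM in the normoxic P12 libraries. The hypoxic libraries held 4 Asns reads in all and the normoxic ones 1744, a 398-fold difference with a 95% counting interval of 155 to 1460. The log2 fold change was -8.57 (SE 1.14, adjusted p = 0.026, edgeR). The embryonic libraries held 11.1 and 10.2 CPM at E15 and 17.5 and 16.6 CPM at E13, so the hypoxic pair stood apart from all 6 other libraries. The hypoxic libraries also detected the fewest genes, and the part of this in the Asns difference was not tested. The call was lost without any one of the 4 embryonic libraries (adjusted p 0.152 to 0.158), with a replicate block (0.0948), in a model of only the 4 P12 libraries (0.341) and with limma-voom (0.389), while the log2 fold change stayed between -9.23 and -7.11 in all 18 alternatives.

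The next genes in order of p-value did not pass the threshold. Dnajc3, the co-chaperone P58IPK that also restrains PERK, had 313 and 265 CPM in hypoxic against 113 and 130 CPM in normoxic P12 cells, with a log2 fold change of 1.25 (SE 0.30, adjusted p = 0.104, edgeR). The ranges of the groups did not meet. Atf6 itself had 0.0673 and 0.37 CPM in hypoxic against 0.635 and 5.18 CPM in normoxic P12 cells (log2 fold change -3.72, SE 1.33, adjusted p = 0.235, edgeR). The groups did not overlap, though the 2 normoxic libraries differed more from each other than the nearer one did from the hypoxic pair on the CPM scale. Sdf2l1, a partner of BiP that keeps misfolded proteins soluble, had 36.7 and 32.3 CPM in hypoxic against 10.7 and 15.6 CPM in normoxic P12 cells (log2 fold change 1.39, SE 0.55, adjusted p = 0.267, edgeR), again without overlap.

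Among the other members with groups apart, Hspa5 had 1430 and 1630 CPM in hypoxic against 1230 and 1350 CPM in normoxic P12 cells (log2 fold change 0.24, SE 0.17). Herpud1, an ER membrane scaffold of the degradation machinery, had 291 and 264 CPM in hypoxic against 654 and 353 CPM in normoxic P12 cells (log2 fold change -0.86, SE 0.36). Neither passed the test. Eif2ak3, the PERK gene, had 36 and 36.6 CPM against 22.9 and 8.34 CPM, and Ppp1r15a, which encodes the GADD34 subunit that reverses eIF2 phosphorylation, 122 and 91.7 CPM against 56.5 and 75.2 CPM, hypoxic libraries first in both. Sel1l, the adaptor of the main ER ubiquitin ligase, had 61.9 and 37.8 CPM in hypoxic against 73.6 and 131 CPM in normoxic P12 cells. Ddit3, the gene of the transcription factor CHOP, had 7.53 and 0.037 CPM in hypoxic against 22 and 14.4 CPM in normoxic P12 cells. Its hypoxic libraries differed so widely that the log2 fold change of -2.26 had an SE of 1.80. Overlapping gene models cover 10.9% of the annotated exons of Ddit3, and 2 annotated loci bear its name, so its reads may have been divided.

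In other genes the 2 libraries of a group lay far apart. Dnajb9, the BiP co-chaperone ERdj4, had 50.8 and 0.703 CPM in hypoxic against 50.8 and 48.1 CPM in normoxic P12 cells. Syvn1, the ubiquitin ligase HRD1, had 55.3 and 0.333 CPM in hypoxic against 10.1 and 14.1 CPM in normoxic P12 cells. In both genes the first hypoxic library was level with or above the normoxic ones and the second was far below. Chac1, a glutathione-degrading enzyme under ATF4, had 1 read in the 2 hypoxic libraries, and in normoxic cells 0 and 12.4 CPM. Trib3 gave 1 read in the hypoxic and 0 in the normoxic libraries, so no fold is given. Oligodendrocyte progenitor markers summed to 873 and 1490 CPM in hypoxic against 456 and 315 CPM in normoxic P12 cells, and cell cycle markers to 982 and 1120 CPM against 540 and 493 CPM. Oligodendrocyte markers summed to 1160 and 1970 CPM in hypoxic against 201 and 572 CPM in normoxic P12 cells, and mural markers to 1280 and 1040 CPM against 2560 and 2000 CPM. The neuron gene Snap25 had 0.605 and 0.333 CPM in hypoxic against 85.8 and 87.6 CPM in normoxic P12 cells, Syt1 0 and 0.111 CPM against 130 and 58.6 CPM, and Stmn2 0.101 and 0.074 CPM against 29.3 and 40.5 CPM. Rbfox3 was also lower in hypoxic cells, at 0.101 and 7.14 CPM against 65.5 and 51.3 CPM. Map2 went the other way, at 177 and 310 CPM in hypoxic against 80.3 and 151 CPM in normoxic P12 cells. Tubb3, Elavl4 and Dcx overlapped between the groups. Over all 8 neuron markers the sums were 278 and 771 CPM in hypoxic against 552 and 609 CPM in normoxic P12 cells. Their part in these differences was not tested.

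**Figure D2:**
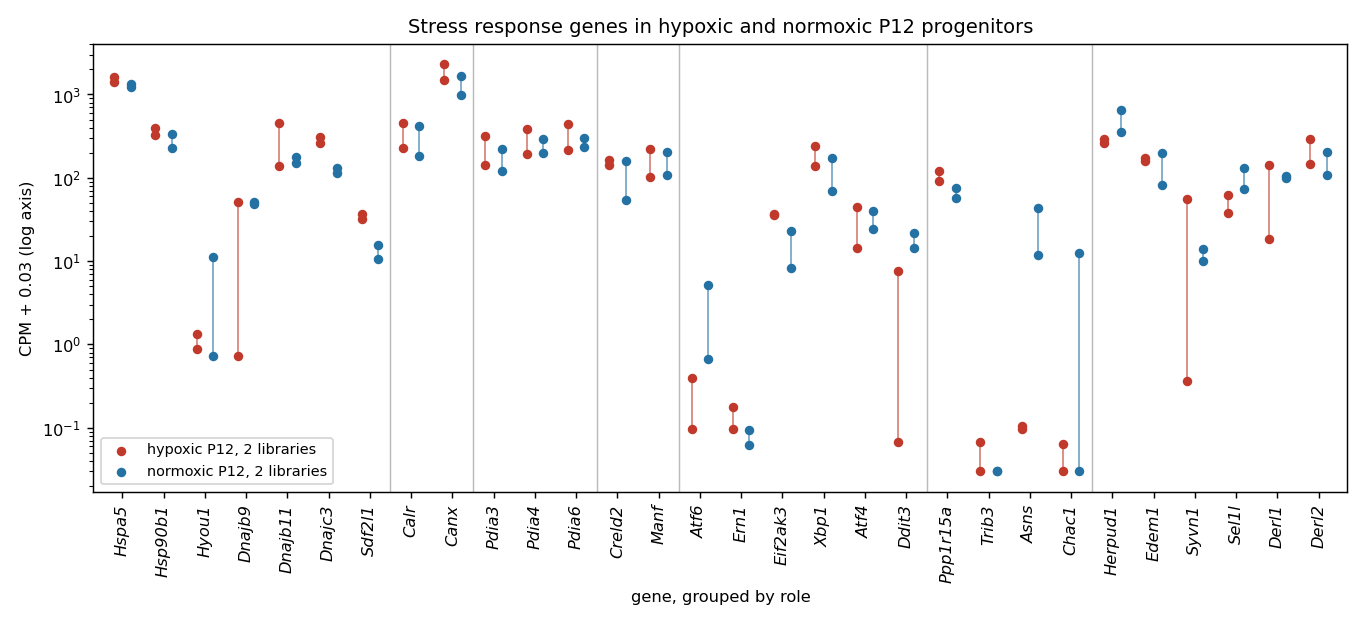
CPM of each gene in the 2 hypoxic (left of each pair) and 2 normoxic (right) P12 libraries, on a log axis with 0.03 CPM added, each line joining the libraries of a group. Asns is the gene that passed the test. Dnajb9, Ddit3 and Syvn1 show long lines in the hypoxic group, and Hyou1, Atf6 and Chac1 in the normoxic group.

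The P12 groups were each set against the embryonic libraries, the mean of E15 and E13. Both comparisons use the same 4 embryonic libraries, so their values stand side by side and are not independent. Between hypoxic P12 and embryonic cells 10 of the 30 genes were higher and 6 lower (edgeR, adjusted p under 0.05), against 13.2% and 12.9% of all genes. Between normoxic P12 and embryonic cells 4 were higher and 2 lower, against 12.1% and 5.68% of all genes, which is near the background in both directions. Groups did not overlap for 13 genes on the higher and 8 on the lower side in hypoxic cells, against 21.3% and 36.3% of all genes, and for 13 and 9 in normoxic cells, against 27.3% and 32.1%. The median log2 fold change of the 30 was 0.17 in hypoxic cells beside -0.43 over all genes, and 0.27 in normoxic cells beside -0.04. In hypoxic cells 3 of 7 Hsp70 and Hsp90 chaperones and co-chaperones were higher and 1, Hyou1, was lower. Of 6 degradation genes 3 were higher and 1, Sel1l, was lower, and of 4 targets of the integrated stress response 1 was higher, Ppp1r15a, and 1 lower, Asns. Of 2 lectin chaperones 1 was higher, as were both secreted factors, while 3 of 6 sensors and transcription factors were lower and 0 of 3 disulfide isomerases were called. In normoxic cells the higher genes were Hspa5, Dnajc3, Canx and Herpud1, and the lower ones Ern1 and Atf4.

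The counts of calls depended on the libraries in the fit. Leaving out any one embryonic library lowered the number called in both P12 groups, as it lowered the share of all genes called. Fits without a P12 library moved the numbers up or down. The replicate block gave 8 called genes in hypoxic cells, beside 14.4% of all genes, and limma-voom 8, beside 12% of all genes. TMM factors were 0.639 to 0.848 at P12 and 1.32 to 1.38 in embryos, and with library totals left unscaled the median of all genes moved to -1.32 in hypoxic and -0.85 in normoxic cells. The split of the called genes then turned to 3 higher and 8 lower in hypoxic and 2 higher and 4 lower in normoxic cells. In these unscaled fits 8.26% of all genes were higher and 18.6% lower in hypoxic cells. In normoxic cells 19.1% of all genes were called, and 8.52% were higher. Canx and Herpud1 were higher in both of these unscaled fits and Dnajc3 in hypoxic cells, while Ern1 and Atf4 were lower in both. Among all called genes the share that was higher was 50.5% and 68% with TMM, and 30.8% and 44.7% unscaled, in hypoxic and normoxic comparisons.

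Among the 7 chaperones and co-chaperones, Hspa5 and Dnajc3 rose in both P12 groups. Hspa5 had 1430 and 1630 CPM in hypoxic and 1230 and 1350 CPM in normoxic P12 cells, against 580 and 504 CPM at E15 and 579 and 584 CPM at E13. Every P12 library held more than every embryonic one. The log2 fold changes were 1.45 (SE 0.14, adjusted p = 0.00169, edgeR) for hypoxic and 1.20 (SE 0.14, adjusted p = 0.00395, edgeR) for normoxic cells, and 0.51 and 0.39 with unscaled totals (adjusted p = 0.0727 and 0.166), under which the call was lost. Dnajc3 had 313 and 265 CPM in hypoxic and 113 and 130 CPM in normoxic P12 cells, against 43.3 and 37.8 CPM at E15 and 36.8 and 32 CPM at E13. Hypoxic P12, normoxic P12 and embryonic libraries formed separate ranges, highest in hypoxic P12 cells. Its log2 fold change was 2.95 (SE 0.25, adjusted p = 0.00108, edgeR) in hypoxic cells, called in all 18 alternatives, and 1.70 (SE 0.24, adjusted p = 0.00828, edgeR) in normoxic cells, called in 13 of 18.

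Dnajb11, the BiP co-chaperone ERdj3, had 140 and 453 CPM in hypoxic and 177 and 150 CPM in normoxic P12 cells, against 59.2 and 58.8 CPM at E15 and 66.2 and 54.7 CPM at E13. The log2 fold change was 2.31 (SE 0.46, adjusted p = 0.0178, edgeR) in hypoxic cells, called in 13 of 18 alternatives, and 1.45 (SE 0.46, adjusted p = 0.0788, edgeR) in normoxic cells, below the threshold. Hyou1, the large Hsp70-like chaperone that serves as exchange factor for BiP, went the other way. It had 0.841 and 1.29 CPM in hypoxic and 0.699 and 11.1 CPM in normoxic P12 cells, against 16.7 and 29.9 CPM at E15 and 39.4 and 43.6 CPM at E13. All P12 libraries were below all embryonic ones. The log2 fold change was -4.86 (SE 1.37, adjusted p = 0.0477, edgeR) in hypoxic cells, called in 8 of 18 alternatives, and -2.40 (SE 1.18, adjusted p = 0.213, edgeR) in normoxic cells. Hsp90b1, the ER Hsp90 GRP94, had 397 and 324 CPM in hypoxic and 225 and 332 CPM in normoxic P12 cells, against 297 and 316 CPM at E15 and 400 and 388 CPM at E13. Its groups overlapped, with a log2 fold change of 0.05 (SE 0.23) in hypoxic cells that turned to -0.86 with unscaled totals.

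The remaining co-chaperones did not pass the test. Sdf2l1 had 36.7 and 32.3 CPM in hypoxic and 10.7 and 15.6 CPM in normoxic P12 cells, against 25.1 to 30.3 CPM in embryos. Its hypoxic libraries lay above and its normoxic ones below the embryonic range (adjusted p = 0.629 and 0.19, edgeR), and with unscaled totals the hypoxic log2 fold change of 0.33 turned to -0.58. Dnajb9 ran from 0.703 to 50.8 CPM at P12 and from 33.7 to 45.8 CPM in embryos.

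The lectin chaperones differed from each other. Canx had 1510 and 2300 CPM in hypoxic and 1680 and 996 CPM in normoxic P12 cells, against 274 and 322 CPM at E15 and 310 and 339 CPM at E13. The lowest P12 library was above the highest embryonic one. The log2 fold changes were 2.62 (SE 0.27, adjusted p = 0.00214, edgeR) in hypoxic cells, called in all 18 alternatives, and 2.10 (SE 0.27, adjusted p = 0.00551, edgeR) in normoxic cells. In normoxic cells the call held in 17 of 18 and was lost without the first normoxic library (log2 fold change 1.54, adjusted p = 0.0537). Calr had 226 and 459 CPM in hypoxic and 414 and 183 CPM in normoxic P12 cells, against 436 and 373 CPM at E15 and 481 and 436 CPM at E13. These ranges overlapped, and its log2 fold changes were -0.33 (SE 0.43) and -0.53 (SE 0.43) in hypoxic and normoxic cells.

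Of the 3 disulfide isomerases 0 passed the test in either comparison with edgeR, and 0 of 3 had an unadjusted p under 0.05. DESeq2 over all 8 libraries and limma-voom also called 0. Other alternatives did make calls. With unscaled totals Pdia6 was lower in both comparisons, and in normoxic cells it was also lower without the first hypoxic library and with edgeR or DESeq2 on only the libraries compared, where DESeq2 called Pdia4 higher. In hypoxic cells without their first library Pdia4 was higher. In normoxic cells edgeR and DESeq2 on only the libraries compared called 34.4% and 49.4% of all genes. With edgeR over all 8 libraries the share was 17.8%, and 19.1% with unscaled totals. Without the first hypoxic library, too, a larger share of all genes was called than with all 8 libraries, in both comparisons. Pdia4, also called ERp72, had 193 and 380 CPM in hypoxic and 196 and 295 CPM in normoxic P12 cells, against 161 to 179 CPM in embryos, where all P12 libraries were above. Its log2 fold changes of 0.77 and 0.55 turned to -0.20 and -0.25 with unscaled totals. Pdia6 had 215 and 442 CPM in hypoxic and 299 and 235 CPM in normoxic P12 cells, against 377 to 533 CPM in embryos. Pdia3, the partner of the lectin chaperones, ran from 122 to 318 CPM at P12 and from 262 to 291 CPM in embryos.

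The 2 secreted factors, Creld2 and Manf, both rose in hypoxic cells. Creld2 had 163 and 144 CPM in hypoxic and 160 and 53.7 CPM in normoxic P12 cells, against 43.8 and 30.4 CPM at E15 and 35.3 and 41.4 CPM at E13. Its log2 fold changes were 2.03 (SE 0.47, adjusted p = 0.0291, edgeR) and 1.51 (SE 0.48, adjusted p = 0.0797, edgeR) in hypoxic and normoxic cells, the first called in 9 of 18 alternatives. Manf, a BiP-binding factor with trophic effects on neurons, had 103 and 222 CPM in hypoxic and 206 and 108 CPM in normoxic P12 cells, against 58.1 and 52.9 CPM at E15 and 61.4 and 63 CPM at E13. With TMM scaling its values at P12 were above every embryonic library. The log2 fold changes were 1.47 (SE 0.42, adjusted p = 0.0486, edgeR) and 1.42 (SE 0.42, adjusted p = 0.0667, edgeR), the first called in 8 of 18 alternatives. With unscaled totals the hypoxic log2 fold changes of Creld2 and Manf were 1.11 and 0.48 (adjusted p = 0.12 and 0.331, edgeR). Exons of other genes cover 9.3% of those of Manf.

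**Figure D3:**
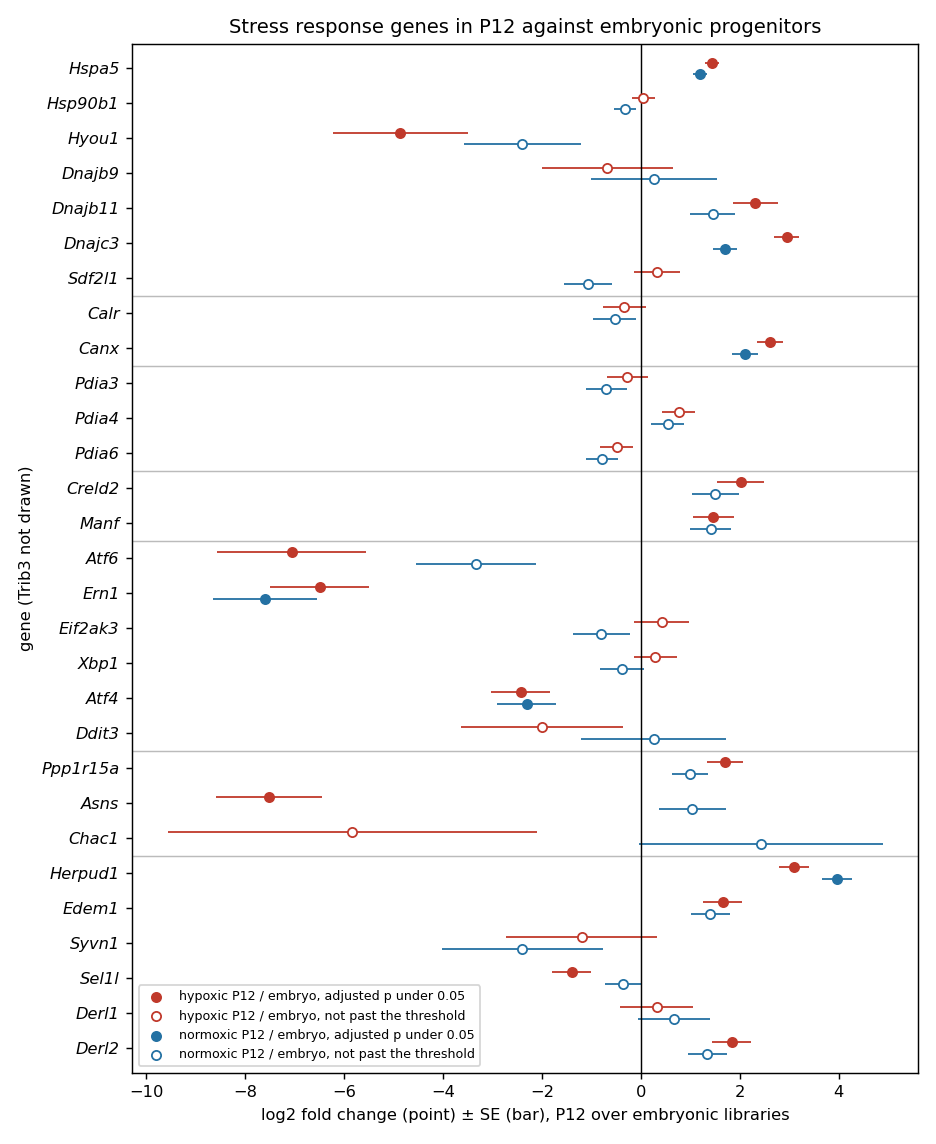
Log2 fold change (point) and SE (bar) of 29 genes, hypoxic P12 (upper point) and normoxic P12 (lower point) over the same 4 embryonic libraries, with filled points past an adjusted p of 0.05. Hspa5, Dnajc3, Canx and Herpud1 lie to the right and Ern1 and Atf4 to the left, past the threshold in both. Trib3, at 0 or 1 read at P12, is not drawn.

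Among the 3 sensors, Ern1 fell in both P12 groups and Atf6 in hypoxic cells. Ern1 had 0.0673 and 0.148 CPM in hypoxic and 0.0635 and 0.0326 CPM in normoxic P12 cells, against 14.1 and 14.9 CPM at E15 and 5.72 and 7.73 CPM at E13. That is 6 reads in the hypoxic and 3 in the normoxic libraries beside 2484 in the embryonic ones, 102-fold lower (95% counting interval 46.7 to 278) and 223-fold lower (76.2 to 1080). The log2 fold changes were -6.49 (SE 1.0, adjusted p = 0.00811, edgeR) and -7.60 (SE 1.06, adjusted p = 0.00771, edgeR), each called in 14 of 18 alternatives, with the call lost without any one embryonic library. Atf6 had 0.0673 and 0.37 CPM in hypoxic and 0.635 and 5.18 CPM in normoxic P12 cells, against 32.7 and 32.6 CPM at E15 and 24.7 and 28.2 CPM at E13. Its log2 fold changes were -7.06 (SE 1.51, adjusted p = 0.0227, edgeR) and -3.33 (SE 1.22, adjusted p = 0.116, edgeR). All P12 libraries detected fewer genes than the embryonic ones. The part of this in the lower values of Ern1 and Atf6, and of Hyou1 above, was not tested. Eif2ak3, the third sensor, had 36 and 36.6 CPM in hypoxic and 22.9 and 8.34 CPM in normoxic P12 cells, against 31 and 30.3 CPM at E15 and 23.1 and 24.7 CPM at E13. Hypoxic libraries lay above and normoxic ones below the embryonic range, and neither difference passed the test (adjusted p = 0.604 and 0.385, edgeR). With unscaled totals the hypoxic log2 fold change of 0.42 turned to -0.50.

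Atf4, the central transcription factor of the integrated stress response, had 14.2 and 44.8 CPM in hypoxic and 24.5 and 39.8 CPM in normoxic P12 cells, against 162 and 115 CPM at E15 and 196 and 169 CPM at E13. The P12 ranges lay wholly below the embryonic ones. The log2 fold changes were -2.43 (SE 0.60, adjusted p = 0.0329, edgeR) and -2.31 (SE 0.59, adjusted p = 0.0473, edgeR), called in 10 and 8 of 18 alternatives. Xbp1 had 138 and 244 CPM in hypoxic and 68.8 and 173 CPM in normoxic P12 cells, against 151 to 158 CPM in embryos, and its ranges overlapped. Gene counts do not separate its spliced from its unspliced mRNA. Ddit3 had 7.53 and 0.037 CPM in hypoxic and 22 and 14.4 CPM in normoxic P12 cells, against 12.4 to 16.8 CPM in embryos. The hypoxic libraries were below the embryonic range and the normoxic ones overlapped it, and neither difference passed the test (adjusted p = 0.396 and 0.927, edgeR).

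Targets of the integrated stress response did not move as a block. Ppp1r15a had 122 and 91.7 CPM in hypoxic and 56.5 and 75.2 CPM in normoxic P12 cells, against 30.4 and 35.4 CPM at E15 and 26.4 and 39.4 CPM at E13. With TMM scaling every P12 library was above every embryonic one. The hypoxic and normoxic log2 fold changes were 1.70 (SE 0.36, adjusted p = 0.0233, edgeR) and 1.0 (SE 0.37, adjusted p = 0.118, edgeR), the first called in 11 of 18 alternatives. With unscaled totals they were 0.79 and 0.20 (adjusted p = 0.206 and 0.775, edgeR). Asns fell in hypoxic cells against embryos, with a log2 fold change of -7.52 (SE 1.07, adjusted p = 0.0061, edgeR), and in normoxic cells its libraries at 43.9 and 11.7 CPM overlapped the embryonic range of 10.2 to 17.5 CPM. Chac1 was at 0 to 2.03 CPM in embryos. It had 1 hypoxic read, and 12.4 CPM in 1 of the 2 normoxic libraries. Trib3 had 107 and 180 reads in the 2 E13 libraries, 0 in both E15 libraries, 1 in the hypoxic and 0 in the normoxic P12 libraries, so its embryonic level is that of E13 alone and no fold against the pooled embryos is given.

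In ER-associated degradation Herpud1 rose most. It had 291 and 264 CPM in hypoxic and 654 and 353 CPM in normoxic P12 cells, against 36.1 and 42.3 CPM at E15 and 23.1 and 30 CPM at E13. The log2 fold changes were 3.10 (SE 0.30, adjusted p = 0.00182, edgeR) in hypoxic and 3.96 (SE 0.31, adjusted p = 0.000962, edgeR) in normoxic cells, and both were called in all 18 alternatives, unscaled totals included (lowest 2.19 and 3.09). Derl2, a channel component of the retrotranslocation machinery, had 296 and 147 CPM in hypoxic and 108 and 206 CPM in normoxic P12 cells, against 65.6 and 61 CPM at E15 and 62.3 and 58.2 CPM at E13. Its log2 fold changes were 1.84 (SE 0.40, adjusted p = 0.0229, edgeR) and 1.35 (SE 0.40, adjusted p = 0.0664, edgeR), the first called in 11 of 18 alternatives. Edem1, a lectin that extracts misfolded glycoproteins, had 173 and 157 CPM in hypoxic and 196 and 81.4 CPM in normoxic P12 cells, against 34.4 and 44.4 CPM at E15 and 65.7 and 73.1 CPM at E13. Its log2 fold changes were 1.66 (SE 0.40, adjusted p = 0.0304, edgeR), called in 7 of 18 alternatives, and 1.41 (SE 0.40, adjusted p = 0.0593, edgeR). With TMM scaling all 3 genes had every P12 library above every embryonic one. With unscaled totals the hypoxic log2 fold changes of Derl2 and Edem1 were 0.97 and 0.74 (adjusted p = 0.184 and 0.177, edgeR). The normoxic ones were then 0.57 and 0.52, and the ranges of both genes overlapped.

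Sel1l moved opposite to these partners in hypoxic cells. It had 61.9 and 37.8 CPM in hypoxic and 73.6 and 131 CPM in normoxic P12 cells, against 155 and 158 CPM at E15 and 109 and 113 CPM at E13. The hypoxic libraries lay below all embryonic ones (log2 fold change -1.40, SE 0.39, adjusted p = 0.0465, edgeR, called in 9 of 18 alternatives), and the normoxic ones overlapped them. Syvn1, which works in a complex with SEL1L, had 55.3 and 0.333 CPM in hypoxic and 10.1 and 14.1 CPM in normoxic P12 cells, against 57.8 to 67.8 CPM in embryos. All P12 libraries were lower, and neither comparison passed the test (adjusted p = 0.591 and 0.349, edgeR). Derl1 ran from 18.5 to 142 CPM at P12 and from 56.7 to 74.3 CPM in embryos. In hypoxic cells it was called higher without their first library, at 18.5 CPM, and lower without the second, at 142 CPM.

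Promoter elements and calls can be set side by side, as a description. Of the 10 genes with an ER stress element or its shorter form, 6 were higher and 0 lower in hypoxic P12 cells than in embryos, and 4 and 0 in normoxic P12 cells, beside the shares of all genes given above, 13.2% higher and 12.9% lower in hypoxic and 12.1% and 5.68% in normoxic cells. Of the 16 genes with a promoter window and no such element, 3 were higher and 4 lower in hypoxic cells, and 0 and 2 in normoxic cells. The median log2 fold changes were 1.74 with and -0.47 without the element in hypoxic cells, and 1.33 and -0.05 in normoxic cells. Between hypoxic and normoxic P12 cells the medians were 0.44 and 0.34. With unscaled totals the genes with the element held 3 higher and 2 lower calls in hypoxic and 2 and 2 in normoxic cells against embryos. Their medians were 0.81 and 0.49. Those without it held 0 and 4 in hypoxic and 0 and 2 in normoxic cells, at medians of -1.30 and -0.86. Of all genes 8.26% were higher and 18.6% lower in hypoxic cells with unscaled totals. In normoxic cells 19.1% of all genes were then called, and 8.52% were higher. Calr, Hsp90b1, Pdia6 and Syvn1 carry the element and did not pass the edgeR test with TMM scaling over all 8 libraries, and the 2 lower calls with unscaled totals were Calr and Pdia6 in both P12 groups.

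Other values moved with age in these libraries. Of 11 immediate early genes, which rise within minutes of a stimulus or of tissue handling, 10 were higher in hypoxic and 10 in normoxic P12 cells than in embryos, with median log2 fold changes of 4.43 and 4.29. Fos had 1090 and 752 CPM in hypoxic and 1730 and 1410 CPM in normoxic P12 cells, against 103 and 112 CPM at E15 and 89.7 and 56.5 CPM at E13. Red cell markers summed to at most 0.037 CPM at P12, 20.3 and 85.1 CPM at E15 and 4760 and 16000 CPM at E13. Microglia markers reached at most 21.2 CPM and endothelial markers 10.2 CPM in any library. Mural cell markers summed to 1280 and 1040 CPM in hypoxic and 2560 and 2000 CPM in normoxic P12 cells, against 0.145 to 3.88 CPM in embryos. Most of that was Rgs5, at 1020 to 2500 CPM at P12 and 0 in embryos, while Acta2 reached at most 1.11 CPM at P12. The part of these, and of the astrocyte, progenitor and neuron markers given above, in the differences of the stress response genes was not tested.

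Between E15 and E13 0 of the 30 genes were called, and 0% of all genes, with edgeR. That model fits the spread of each gene over all 8 libraries, so the wide P12 spread enters the SE given here. With edgeR on the embryonic libraries alone 229 of all genes were called, or 1.25%, and 0 of the 30. At an unadjusted p under 0.05 there was 1 of the 30, and 690 genes in all. With limma-voom 3 of the 30 were called, with DESeq2 0, and with DESeq2 on the 4 embryonic libraries alone 7. The shares of all genes called in these fits were 4.69%, 1.67% and 12.7%. Fold changes were positive for 12 and negative for 18, with a median log2 fold change of -0.05 beside -0.0015 over all genes. Groups did not overlap for 8 genes on the higher and 10 on the lower side, against 23.6% and 25.8% of all genes. Trib3, the gene at an unadjusted p under 0.05, was at 0 in both E15 libraries, against 1.91 and 3.21 CPM at E13, which is at least 50.7-fold lower at the limit of 3 counts per library (adjusted p = 1, edgeR). Edem1 had 34.4 and 44.4 CPM at E15 against 65.7 and 73.1 CPM at E13 (log2 fold change -0.82, SE 0.48, adjusted p = 1, edgeR). Herpud1 had 36.1 and 42.3 CPM at E15 against 23.1 and 30 CPM at E13 (log2 fold change 0.56, SE 0.36, adjusted p = 1, edgeR). Hsp90b1 had 297 and 316 CPM at E15 against 400 and 388 CPM at E13 (log2 fold change -0.36, SE 0.26, adjusted p = 1, edgeR). In all 4 genes the 2 ages did not overlap. Ern1 was also apart, at 14.1 and 14.9 CPM at E15 against 5.72 and 7.73 CPM at E13.

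Genes around these pathways were followed as 9 further lists, of which 142 genes were tested. Between hypoxic and normoxic P12 cells 2 of the 142 were lower and 0 higher, against 2.82% lower and 0.196% higher among all genes, so the lists did not exceed the background. The 2 genes act close to genes above. Mthfd2, a mitochondrial folate enzyme under ATF4, had 0.135 and 0.074 CPM in hypoxic against 12.5 and 13.8 CPM in normoxic P12 cells (log2 fold change -6.94, SE 0.91, adjusted p = 0.0251, edgeR). Ero1l, an oxidase that recharges the disulfide isomerases, had 0.135 and 0.333 CPM in hypoxic against 20.7 and 6.32 CPM in normoxic P12 cells (log2 fold change -5.84, SE 1.01, adjusted p = 0.045, edgeR). Ero1lb, in the same list, had 32.1 and 75.5 CPM in hypoxic against 43.2 and 77.5 CPM in normoxic P12 cells and was not called. For Mthfd2 and Ero1l, as for Asns, the hypoxic libraries lay below all other libraries of the series. These 2 genes were 1 of 29 other ATF4 targets and 1 of 19 other ER folding genes tested. Like Asns, neither was called with limma-voom or in the edgeR fit of only the P12 libraries, where 0 of all genes were called. The part of the fewer genes detected in the hypoxic libraries was not tested.

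Against embryos 39 of the 142 were higher and 6 lower in hypoxic P12 cells, and 33 and 2 in normoxic P12 cells, set against shares of all genes of 13.2% and 12.9% in hypoxic and 12.1% and 5.68% in normoxic cells. Of 29 other ATF4 targets 8 were higher and 1 lower in hypoxic cells, and 6 and 2 in normoxic cells, while Atf4 itself fell in both. Phgdh and Psat1, enzymes of serine synthesis, had 252 and 113 CPM and 271 and 335 CPM in hypoxic cells. In normoxic cells Phgdh had 196 and 160 CPM and Psat1 333 and 150 CPM, against 2.45 to 8.71 CPM and 10.7 to 26 CPM in embryos. Their log2 fold changes were 5.43 and 4.20 in hypoxic and 5.39 and 3.87 in normoxic cells. Of the 12 kinases and eIF2 factors 2 were higher and 0 lower in both comparisons, Eif2ak2, the double-stranded RNA sensor PKR, and Impact, an inhibitor of the kinase GCN2. Impact had 2550 and 4380 CPM in hypoxic and 6020 and 2640 CPM in normoxic P12 cells, against 30.1 to 35.4 CPM in embryos.

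Of 19 other ER folding genes 5 were higher and 1 lower in hypoxic cells, and 4 and 0 in normoxic cells, with Txndc5, a disulfide isomerase, at log2 fold changes of 2.23 and 2.38. Of 17 other degradation genes 4 were higher in hypoxic and 3 in normoxic cells, and 0 were lower in either. Of 24 genes of translocation and export 7 were higher and 2 lower in hypoxic cells, and 5 and 0 in normoxic cells. Spcs2, a subunit of the signal peptidase, had 789 and 1170 CPM in hypoxic and 1170 and 700 CPM in normoxic P12 cells, against 135 to 145 CPM in embryos. Kdelr2, a receptor that returns ER proteins from the Golgi, had 342 and 882 CPM in hypoxic and 613 and 200 CPM in normoxic P12 cells, against 12.4 to 17.8 CPM in embryos. Of the 12 other ER stress transducers tested 1 was lower and 0 were higher in hypoxic cells. Of 10 cytosolic heat shock genes 1 was higher in each, Dnajb1, at log2 fold changes of 3.30 and 3.34. Of 8 genes of the mitochondrial unfolded protein response 2 were higher and 1 lower in hypoxic cells and 2 higher and 0 lower in normoxic cells.

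**Figure D4:**
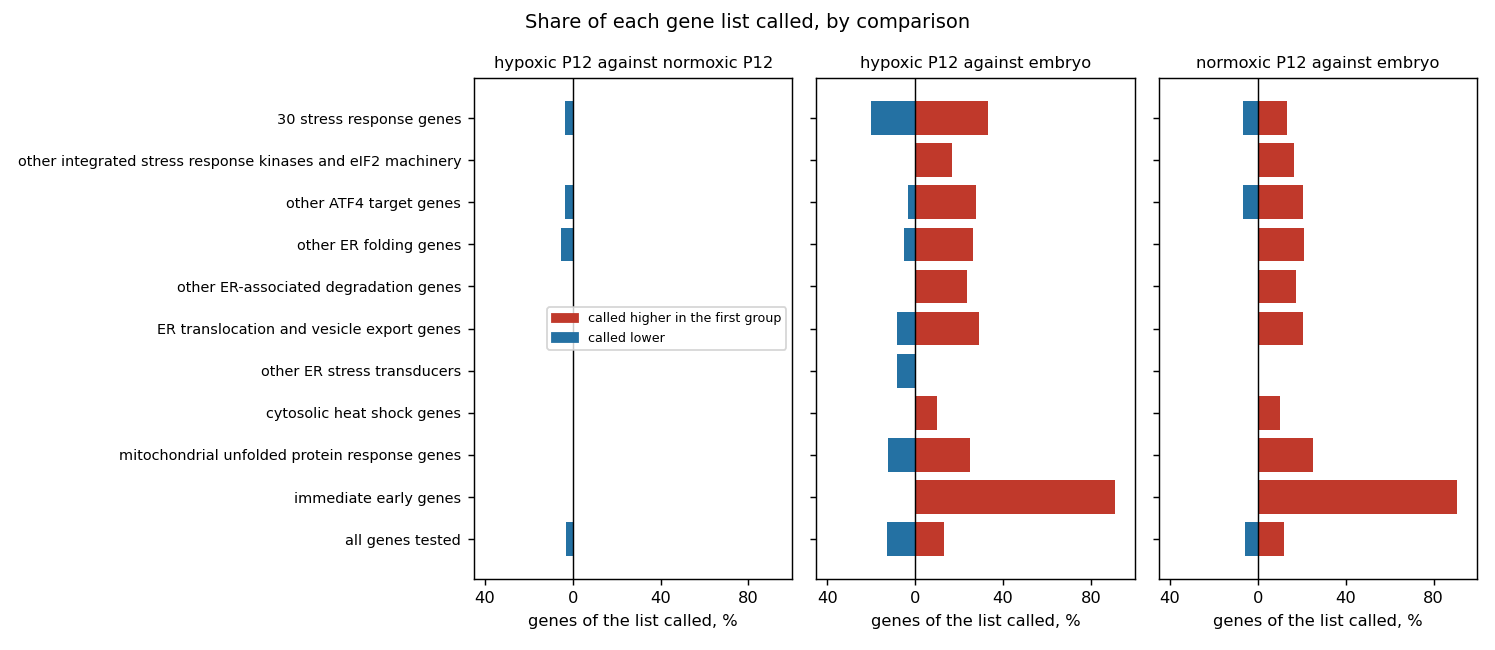
Share of each list called higher (right of 0) or lower (left of 0) in hypoxic P12 against normoxic P12 cells, hypoxic P12 cells against embryos and normoxic P12 cells against embryos, with all tested genes in the bottom row. Immediate early genes stand out in both comparisons with embryos at 10 of 11 genes, and nearly nothing is called between the P12 groups.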

How the data were processed

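RNA-seq counts of 8 libraries were used, 2 per group, grouped by their labels. Per the labels' protocols, each library was made with the NEBNext Ultra II kit from 400 pg of column-purified RNA. The deposited values are raw counts per gene, made with cutadapt, STAR and Subread on GRCm38, per the submitters' processing notes, which list no versions. The annotation, strand setting and treatment of reads shared between genes are not given in the sources used here.

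Of 55487 rows per file, 1980 that name no gene (0.205% to 0.266% of counts) were left out. With edgeR 4.0.16 (R 4.3.3), library sizes were scaled by TMM, filterByExpr (minimum count 10, total 15) kept 19936 genes, and 1 quasi-likelihood model of the 4 groups over all 8 libraries (4 residual degrees of freedom) gave 4 two-sided contrasts, Benjamini-Hochberg adjusted over all genes at 0.05. The SE is the log2 fold change divided by the root of F. Ratios of read sums carry exact 95% intervals that, like limits for a count of 0, cover counting error only: without molecular identifiers, reads may be PCR copies. Alternatives were DESeq2 1.42.0, limma-voom 3.58.1, other scalings and filters, each library left out, a replicate block and fits of only the compared groups. Samples of equal number did not deviate together (correlations -0.0385 to 0.00829 over 6 pairs of groups), and the numbers were not treated as pairs. With 2 libraries per group and P12 replicates far apart, this check cannot exclude a shared origin of libraries of equal number. Coordinates and exon lengths come from GENCODE M21 and promoters from RefSeq.

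The 30 genes and all lists were chosen with earlier results of these data known. Called genes were described in full, up to 12 per comparison by smallest p (4 where fewer than 4 were called), and Hyou1, Manf, Atf4 and Sel1l in hypoxic cells were added after their values were seen. Of other lists up to 4 called genes were named.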

Additional observations from a re-analysis of the deposited data

How the results depend on the processing

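The number of the 30 genes called changed with the model and with the libraries in the fit. Between hypoxic and normoxic P12 cells 1 gene was called, beside 3.02% of all genes. There DESeq2 called 4, limma-voom 0 and a fit of only the 4 P12 libraries 0, beside 19.8%, 0% and 0% of all genes. Between E15 and E13 (0 genes, and 0% of all genes), limma-voom called 3, beside 4.69% of all genes. DESeq2 on only the embryonic libraries, an alternative chosen after seeing the data, called 7, beside 12.7% of all genes. Between normoxic P12 cells and embryos 6 genes were called, beside 17.8% of all genes. There DESeq2 called 13, a fit of only these groups 14 and DESeq2 on only these groups 19. The shares of all genes called in these fits were, in the same order, 35.8%, 34.4% and 49.4%. Leaving out 1 library gave 3 to 11. Between hypoxic P12 cells and embryos 16 genes were called, beside 26.1% of all genes. There limma-voom called 8, beside 12% of all genes, and leaving out 1 library gave 5 to 17. In both comparisons, a larger number called on leaving out 1 library went with a larger share of all genes called. With the replicate block, 0 genes were called between hypoxic and normoxic P12 cells and 0 between E15 and E13, beside 0.00502% and 0% of all genes. The block gave 5 between normoxic P12 cells and embryos and 8 between hypoxic P12 cells and embryos, beside 8.55% and 14.4% of all genes. The cause of these differences was not tested. For the 26 fold changes of single genes described in full, 467 alternatives gave 380 on the same side of the threshold, 77 that fell short of it, 10 that newly passed it and 0 of opposite direction. Unscaled library totals, also chosen after seeing the data, are given beside the results.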
